A study of Mus musculus with 4 samples.

Results

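The genes that encode the proteasome and its activators were examined in chromatin profiles made with an antibody against Ruvbl2, an AAA+ ATPase found in the INO80, SRCAP and TIP60 chromatin complexes. By their symbols (Psma to Psmg, each followed by a number), 51 of 21883 protein-coding genes on chromosomes 1 to 19, X and Y were taken. They comprised 8 alpha and 8 beta genes of the core particle, 3 immunoproteasome genes, 6 ATPase and 11 non-ATPase genes of the regulatory particle, 3 assembly chaperones of the regulatory particle and 4 of the core, 5 activators and 1 inhibitor. The other 2, Psmc3ip and Psme3ip1, share only the prefix: Psmc3ip encodes a recombination factor and Psme3ip1 a partner of the activator Psme3. CUT&Tag, which tethers a transposase to chromatin through an antibody, had been run on LSC and HSC from mouse bone marrow with 2 libraries each, called LSC 1, LSC 2, HSC 1 and HSC 2 here after their labelled replicate numbers. LSC were c-Kit+ CD34+ CD16/32+ cells without lineage markers or Sca-1 from Nup214fl/+ mice described as MLL-AF9-driven, and HSC were LSK cells (CD150+ and CD48-) of Nup214fl/+ mice. The groups come from the titles, since the cell type label reads hematopoietic stem cell for all 4 libraries. Libraries were made from 2000 to 5000 cells with 17 to 20 PCR cycles. Both groups thus carried a floxed Nup214 allele; the labels name no Cre, no age and no way in which MLL-AF9 was introduced, and they do not say whether replicates were separate animals. The LSC gate is also that of granulocyte-monocyte progenitors, so leukaemia and maturation stage cannot be told apart between the groups. The protocol names an anti-rabbit secondary antibody and does not state the host of the Ruvbl2 antibody, and no control library was used here.

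The proteasome degrades proteins tagged with ubiquitin. Its core particle is a stack of rings, with the catalytic sites on beta subunits inside and alpha subunits gating the entry; the regulatory particle caps it, and there a ring of ATPases unfolds the substrate while non-ATPase subunits bind and remove ubiquitin. In immune cells and after interferon, Psmb8, Psmb9 and Psmb10 replace the constitutive catalytic subunits, and the PA28 cap made of Psme1 and Psme2 opens the core without ATP. The subunit genes are expressed in nearly every cell and are induced together by the transcription factor Nfe2l1 when the proteasome is inhibited.

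Peaks lay over the promoters of many of these genes, and the sequences of 8 of them are shown because the signal described further on lay there. Psme2 (chr14:55591102-55591351, minus strand) and Psmc5 (chr11:106255935-106256184, plus strand) are the genes listed in all 4 libraries, as defined further on, whose promoters were overlapped by a peak of some strength in each library. The others stand for the remaining classes and were chosen, after their values were seen, as the class's best ranked promoter in the replicate 2 libraries: Psma5 (chr3:108256676-108256925, plus strand), Psmb3 (chr11:97703184-97703433, plus strand), Psmb9 (chr17:34187331-34187580, minus strand), Psmd1 (chr1:86064369-86064618, plus strand), Psmd5 (chr2:34870963-34871212, minus strand) and Psmg1 (chr16:95990961-95991210, minus strand). Each run is the 250 bases before the annotated start site from RefSeq on GRCm38.p6, 5′ to 3′ on the gene's strand; capitals mark matches to the motifs named in the next paragraph.
Psma5: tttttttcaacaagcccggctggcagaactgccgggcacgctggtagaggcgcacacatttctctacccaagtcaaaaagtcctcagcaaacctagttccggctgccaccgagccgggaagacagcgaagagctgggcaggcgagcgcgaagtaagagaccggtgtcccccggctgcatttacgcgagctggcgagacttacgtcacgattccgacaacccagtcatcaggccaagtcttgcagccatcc
Psmb3: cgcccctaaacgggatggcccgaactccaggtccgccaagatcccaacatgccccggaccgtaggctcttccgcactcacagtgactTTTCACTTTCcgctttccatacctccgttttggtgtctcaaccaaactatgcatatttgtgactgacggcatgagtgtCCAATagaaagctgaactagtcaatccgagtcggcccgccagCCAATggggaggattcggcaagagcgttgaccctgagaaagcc
Psmb9: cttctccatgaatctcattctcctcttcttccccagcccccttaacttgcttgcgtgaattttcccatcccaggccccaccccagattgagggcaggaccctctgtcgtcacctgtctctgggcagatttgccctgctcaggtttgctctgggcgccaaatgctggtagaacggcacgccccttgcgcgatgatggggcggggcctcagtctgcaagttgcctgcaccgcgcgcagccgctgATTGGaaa
Psmc5: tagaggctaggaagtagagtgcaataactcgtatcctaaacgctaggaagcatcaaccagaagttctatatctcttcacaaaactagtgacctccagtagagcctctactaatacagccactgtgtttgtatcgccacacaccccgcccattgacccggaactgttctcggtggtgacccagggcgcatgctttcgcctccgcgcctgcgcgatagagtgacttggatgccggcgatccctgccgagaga
Psmd1: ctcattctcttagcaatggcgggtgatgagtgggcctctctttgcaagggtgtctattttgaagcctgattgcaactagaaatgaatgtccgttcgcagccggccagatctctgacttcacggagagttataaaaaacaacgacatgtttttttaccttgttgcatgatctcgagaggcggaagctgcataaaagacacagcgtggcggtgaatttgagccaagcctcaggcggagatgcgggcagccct
Psmd5: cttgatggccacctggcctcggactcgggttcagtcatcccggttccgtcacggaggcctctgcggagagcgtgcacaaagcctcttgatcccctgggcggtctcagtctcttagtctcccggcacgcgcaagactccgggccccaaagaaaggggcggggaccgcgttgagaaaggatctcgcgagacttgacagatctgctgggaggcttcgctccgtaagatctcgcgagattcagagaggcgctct
Psme2: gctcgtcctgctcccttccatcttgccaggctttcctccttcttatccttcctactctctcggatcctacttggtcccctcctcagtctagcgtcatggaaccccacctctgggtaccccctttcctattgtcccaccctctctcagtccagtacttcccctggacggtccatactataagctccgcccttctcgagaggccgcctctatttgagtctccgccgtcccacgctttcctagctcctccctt
Psmg1: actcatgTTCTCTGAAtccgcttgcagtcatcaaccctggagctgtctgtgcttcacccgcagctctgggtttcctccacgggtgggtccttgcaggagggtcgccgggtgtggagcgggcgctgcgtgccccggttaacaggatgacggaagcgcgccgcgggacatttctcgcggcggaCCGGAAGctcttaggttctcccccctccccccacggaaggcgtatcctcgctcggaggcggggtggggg

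Of 51 genes, 43 had a promoter in the RefSeq table. Motifs were searched on both strands over the 250 bases before and 50 bases after each start. The ETS motif CCGGAAG was in the promoters of 16 of 43 proteasome genes (37.2%) and in 12.9% of 17491 protein-coding genes. The antioxidant response element TGACNNNGC, the kind of site that Nfe2l1 binds, was in 6 of 43 (14.0%), beside 14.8% of all genes; its holders were Psmb5, Psmb6, Psmc6, Psmd9, Psmd12 and Psme4. The NF-Y motif CCAAT was in 16 of 43 (37.2%), beside 42.3%. Shares for the rarer motifs were 11.6% beside 3.94% for the interferon response motif, 6.98% beside 8.92% for the STAT motif TTCNNNGAA, 4.65% beside 1.47% for the motif of nuclear respiratory factor Nrf1, 4.65% beside 2.14% for the Yy1 motif AAGATGGCG and 0% beside 2.54% for the CRE motif TGACGTCA. Among the 8 printed promoters, capitals stand at Psmb3 (an interferon response motif at -163 and CCAAT at -85 and -43 from the start), Psmb9 (CCAAT in reverse at -8) and Psmg1 (STAT at -243 and ETS at -69). Of the 19 proteasome genes with a strong peak over the promoter in both LSC 2 and HSC 2, 6 held the ETS motif, 6 held CCAAT and 2 held TGACNNNGC; over the 2402 genes of that kind the shares were 22.8%, 53.0% and 19.4%. The interferon response motif was held by 4 of these 19 beside 3.04% of the 2402 genes, the STAT motif by 3 beside 8.16%, the Nrf1 motif by 1 beside 2.79%, the Yy1 motif by 1 beside 5.25% and the CRE motif by 0 beside 4.58%. A match describes letters and not a bound site.

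Peaks were ranked within each library by the authors' −log10 p-value, and the 20000 strongest are called listed peaks. A gene was listed when a listed peak overlapped its body or the 1000 bases on either side. The deposited lists held 213978 peaks in LSC 1, 208855 in LSC 2, 159842 in HSC 1 and 284974 in HSC 2 on the chromosomes used, and the weakest listed peak had a fold over its own library's background of 28.4, 18.2, 22.7 and 12.7 in that order. Read totals are not in these lists, so depth is unknown, and folds are compared only within a library. A comparison of 2 LSC with 2 HSC libraries cannot give an exact permutation p below 0.333 (two-sided), so counts and ranks are given without a test. As a look at the labelled cell types, the granulocyte-monocyte genes Mpo, Elane, Prtn3, Ctsg and Fcgr3 gave 3 listed genes of 5 in LSC 1, 3 in LSC 2, 3 in HSC 1 and 4 in HSC 2. Of all protein-coding genes 32.3%, 41.2%, 30.2% and 41.2% were listed in these libraries. The stem cell genes Slamf1 and Procr and the leukaemia gene Hoxa9 were listed in no library, while Mecom and Meis1 were listed in all 4. Of 3 B cell and 3 T cell genes, 2 and 2 were listed in LSC 1, 1 and 1 in LSC 2, 1 and 0 in HSC 1 and none in HSC 2. Their part in the results was not tested, and a peak at a gene is no measure of its expression.

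All 51 genes had at least 1 deposited peak of some strength, and 36 had one in every library (61.2% of all protein-coding genes had one in every library). Listed peaks were less general. They lay at 18 of 51 genes (35.3%) in LSC 1, 29 (56.9%) in LSC 2, 19 (37.3%) in HSC 1 and 31 (60.8%) in HSC 2. The same criterion took 32.3%, 41.2%, 30.2% and 41.2% of all protein-coding genes in those libraries. Among genes with lengths between the quartiles of the proteasome genes (5760.5 to 22246.5 bases) it took 24.2%, 40.3%, 22.8% and 40.7%. The share of the proteasome genes was above that of genes of like length in each of the 4 libraries. Beside all protein-coding genes it was higher by fewer percentage points in LSC 1 and HSC 1 than in LSC 2 and HSC 2. The median rank of a gene's best peak was 47908 for proteasome genes beside 49917 for all genes in LSC 1, 8524 beside 31380 in LSC 2, 37845 beside 56829 in HSC 1 and 9238 beside 32134 in HSC 2, so the medians lay close together in LSC 1 and apart in the other libraries.

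**Figure D1:**
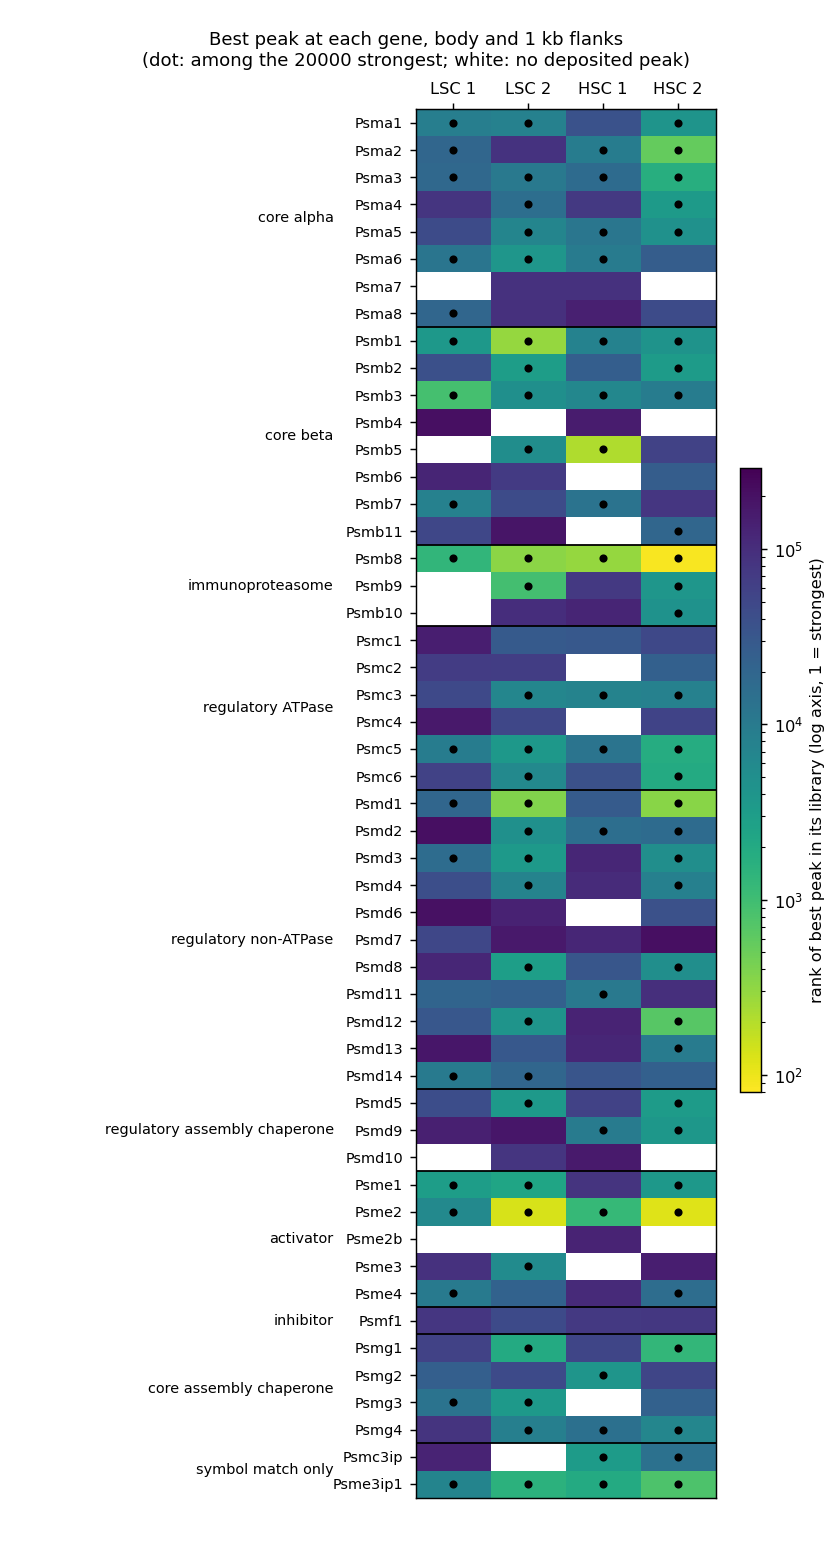
Rank of the best peak at each of the 51 genes (rows, by class) in the 4 libraries (columns); colour gives the rank on a log axis with 1 the strongest, a dot marks a listed gene and white marks no deposited peak. Dots are densest in the LSC 2 column (29) and the HSC 2 column (31).

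Within 1000 bases of a start site, proteasome genes held listed peaks more often than all genes in each library. In LSC 2 and HSC 2 most of them did. Of the 43 genes with an annotated start, 7 (16.3%) had a listed peak within 1000 bases of it in LSC 1, 24 (55.8%) in LSC 2, 7 (16.3%) in HSC 1 and 24 (55.8%) in HSC 2. For all 17491 genes with a start these shares were 9.54%, 24.8%, 9.03% and 24.1%. In the narrower promoter window, 250 bases before to 50 after the start, the proteasome genes stood at 6.98%, 53.5%, 14.0% and 55.8%. All genes stood there at 6.87%, 20.8%, 6.27% and 20.6%, so the shares were nearly equal in LSC 1. With peaks of any strength the proteasome genes reached 53.5%, 79.1%, 39.5% and 79.1%, beside 35.3%, 50.8%, 28.1% and 54.8% of all genes. The best listed peak itself was at the start in 21 of 25 listed genes with a known start (84.0%) in LSC 2 and in 21 of 27 (77.8%) in HSC 2, where the shares over all genes were 52.7% and 51.7%. In LSC 1 it was at the start in 7 of 14 (50.0%) and in HSC 1 in 5 of 15 (33.3%), beside 24.8% and 25.8% of all genes. Median widths of the start peaks were 450 and 969 bases in LSC 1 and LSC 2 and 586 and 1340 bases in HSC 1 and HSC 2.

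**Figure D2:**
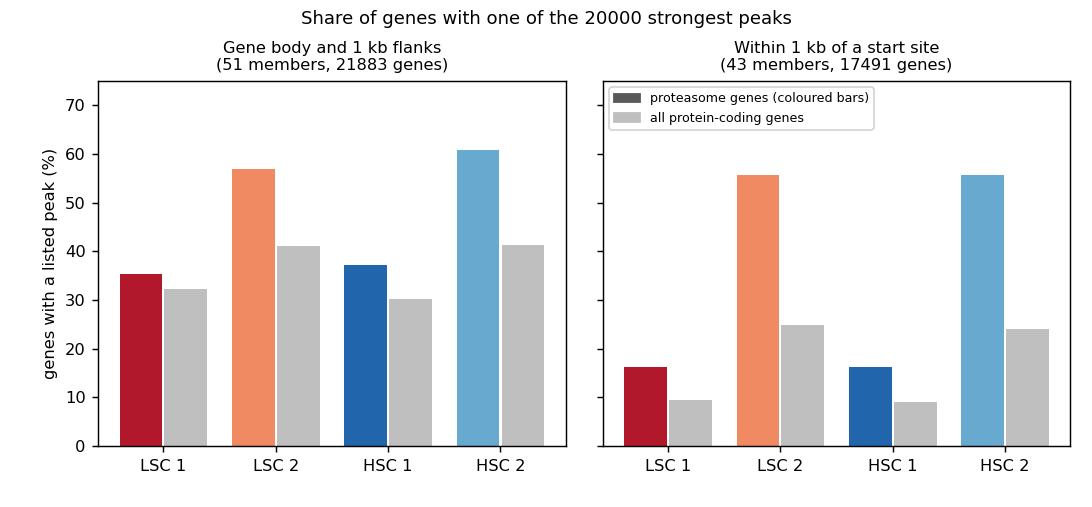
Percent of genes with a listed peak in each library, for the proteasome genes (coloured bars) and all protein-coding genes (grey bars), over gene body and flanks (left panel) and within 1 kb of a start site (right panel). At start sites the proteasome genes reached 55.8% in LSC 2 and HSC 2, and 16.3% in LSC 1 and HSC 1.

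Around the outermost start of each gene, coverage by listed peaks was highest next to the start in LSC 2, where 21 of 43 genes (48.8%) were covered at 50 bases downstream, and in HSC 2, where 23 (53.5%) were covered from 200 to 50 bases upstream. Coverage of all genes reached 16.9% and 17.0% in these libraries. In LSC 1 the highest coverage was 3 genes (6.98%), 1200 to 1250 bases downstream, and in HSC 1 it was 6 genes (14.0%), 150 to 100 bases upstream; over all genes the highest values were 4.35% and 4.12%. At the start itself 2.33% of proteasome genes were covered in LSC 1, below the 4.19% of all genes, and 6.98% beside 3.94% in HSC 1. At 3000 bases upstream the proteasome genes were covered in at most 2.33% of cases in each library.

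**Figure D3:**
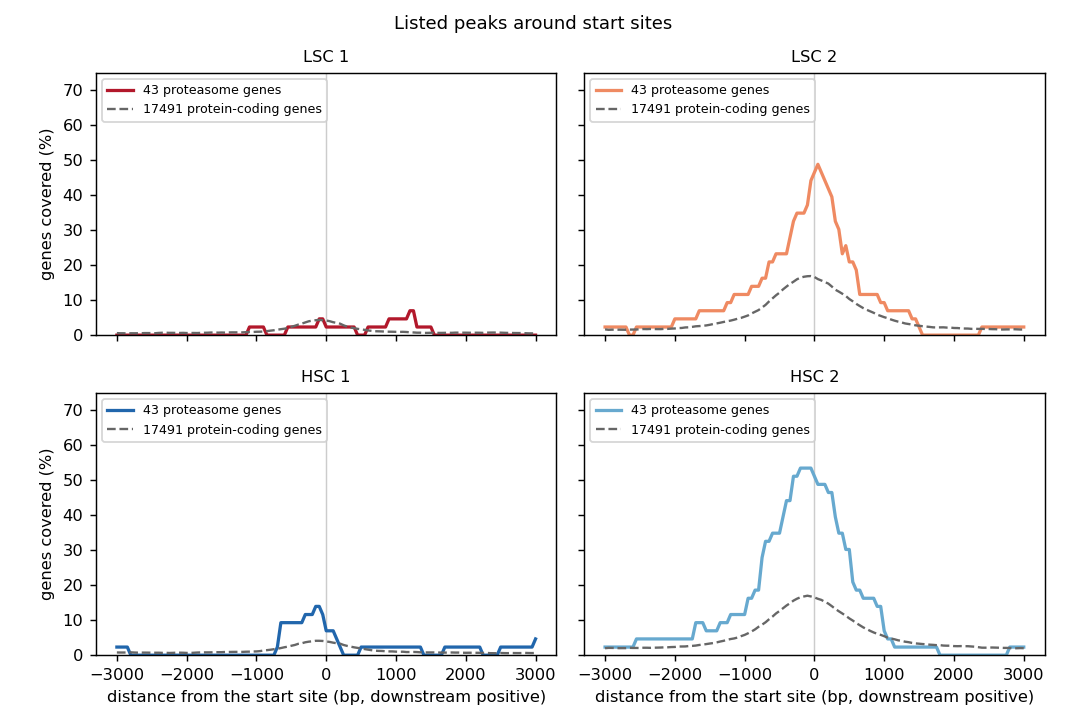
Percent of genes covered by a listed peak at each distance from the start site, in steps of 50 bases, for 43 proteasome genes (solid lines) and 17491 protein-coding genes (dashed lines) in each library. The solid line stands above the dashed one around the start in LSC 2 and HSC 2, with maxima of 48.8% and 53.5%.

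The genes with a listed start peak were largely shared between the cell types at replicate number 2. Of 24 such genes in LSC 2 and 24 in HSC 2, 19 were in common (79.2% of each), where over all genes the common part was 65.4% of the LSC 2 genes and 67.2% of the HSC 2 genes. Those found in LSC 2 and not in HSC 2 were Psma6, Psmb5, Psmd14, Psme3 and Psmg3, and those found in HSC 2 and not in LSC 2 were Psma2, Psma4, Psmc3ip, Psmd9 and Psmd13. At replicate number 1 only Psmc5 and Psme2 were common to the 7 genes of LSC 1 and the 7 of HSC 1 (28.6% of each, beside 35.0% and 37.0% over all genes). Start peaks were found in LSC 1 and not in HSC 1 at Psma1, Psma6, Psmd14, Psme1 and Psmg3, and in HSC 1 and not in LSC 1 at Psma2, Psma3, Psmb3, Psmb5 and Psmc3ip. The difference in listed genes, LSC minus HSC over body and flanks, was -1 within replicate 1 and -2 within replicate 2, so the counts of the cell types lay closer to each other than those of the replicate numbers. Over all genes, listed peaks were also wider in replicate 2, with medians of 371 bases in LSC 1, 634 in LSC 2, 484 in HSC 1 and 714 in HSC 2. Peak names in the files follow one scheme in both replicate 1 libraries and another in both replicate 2 libraries; the part of names and widths in the results was not tested.

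Listed in all 4 libraries were 7 of 51 genes (13.7%), beside 11.3% of all protein-coding genes and 6.82% of genes of like length. They were Psmb8, Psme2, Psme3ip1, Psmb1, Psmb3, Psmc5 and Psma3 in the order of their worst rank, and there were 11 without LSC 1 (15.9% of all genes) and 11 without HSC 1 (16.9%). Within 1000 bases of a start, 2 of 43 (4.65%) were listed in all 4, namely Psmc5 and Psme2, beside 2.84% of all genes. The best peaks of all 4 libraries overlapped one another at Psmb1, Psmb8 and Psme2. At Psma3, Psmb3, Psmc5 and Psme3ip1 they lay in part at different places in or beside the gene, so being listed in all 4 did not there mean a common site. Psme3ip1, matched by symbol alone, had folds of 49.6 in LSC 1, 42.8 in LSC 2, 51.7 in HSC 1 and 36.1 in HSC 2. Its best peaks in LSC 2 and HSC 2 were shared with Rspry1, that is, they also overlapped the body or 1000-base flanks of Rspry1.

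**Figure D4:**
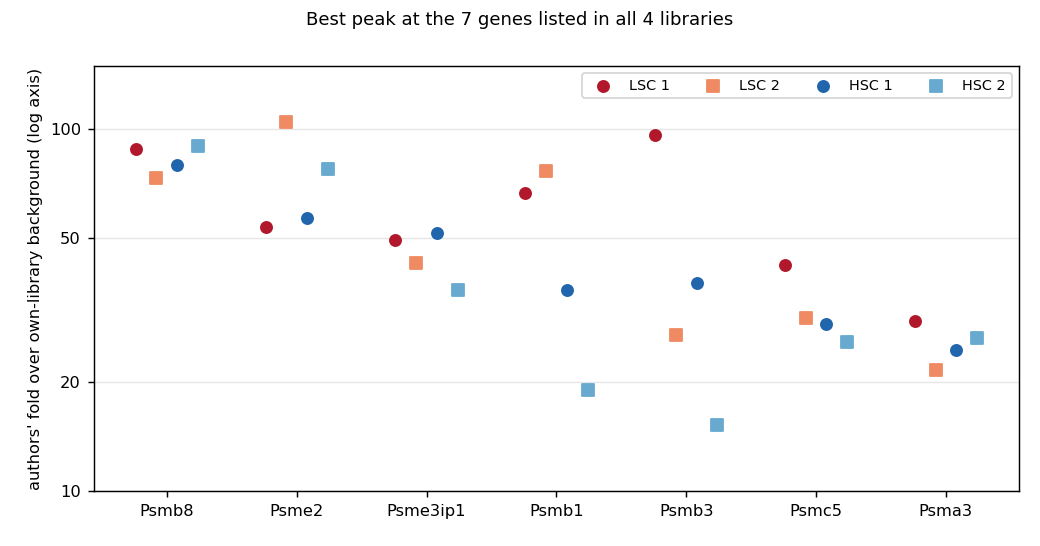
The authors' fold of the best peak over its own library's background (log axis) at the 7 genes listed in all 4 libraries, 1 point per library. Folds are to be read within a library and not between libraries. Among the 7 genes the highest fold was that of Psmb3 in LSC 1 (96.4) and Psme2 in LSC 2 (105). In HSC 1 (79.8) and HSC 2 (90.2) it was that of Psmb8.

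In the core particle, the alpha genes Psma1 to Psma8 were listed in 5 of 8 cases in LSC 1, 5 in LSC 2, 4 in HSC 1 and 5 in HSC 2. The shares of all protein-coding genes in that order were 32.3%, 41.2%, 30.2% and 41.2%. Psma3, a subunit of the alpha ring, had folds of 29.6 in LSC 1, 21.6 in LSC 2, 24.6 in HSC 1 and 26.6 in HSC 2, but its best peaks overlapped only between HSC 1 and HSC 2. Psma1 had folds of 44.5, 23.5 and 19.3 in LSC 1, LSC 2 and HSC 2 at ranks 8620, 7839 and 4206, and these 3 peaks overlapped at the start; the peak in HSC 1 was weaker (rank 37095) and inside the gene. Psma2 had weak start peaks in LSC 1 (rank 182091) and LSC 2 (rank 87399), against listed ones in HSC 1 (rank 9249) and HSC 2 (rank 550); a listed LSC 1 peak (rank 19511) lay 5858 bases inside the gene. The Psma2 start peak in HSC 1 and HSC 2 was shared with the adjacent Mrpl32, a mitochondrial ribosomal protein gene. Psma6 showed the opposite tendency, with listed start peaks in LSC 1 (rank 11832) and LSC 2 (rank 4616) and weaker ones in HSC 1 (rank 136207) and HSC 2 (rank 33882), although HSC 1 had a listed peak elsewhere in the gene (rank 9624). The LSC 1 summit was 14589 bases downstream of the outermost start, next to another annotated start of the gene. Psma7 was listed nowhere and the testis form Psma8 in LSC 1 alone. Psma4 was listed in LSC 2 and HSC 2 at sites that did not overlap, and Psma5 in LSC 2, HSC 1 and HSC 2, with overlap at the start between LSC 2 and HSC 2.

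Among the beta genes, Psmb1 to Psmb7 and the thymus form Psmb11, 3 were listed in LSC 1, 4 in LSC 2, 4 in HSC 1 and 4 in HSC 2 of 8. Beside them stand 32.3%, 41.2%, 30.2% and 41.2% of all protein-coding genes. Psmb1, a structural subunit, had overlapping peaks of fold 66.8 in LSC 1, 76.7 in LSC 2, 36.1 in HSC 1 and 19.1 in HSC 2 at ranks 3665, 292, 7567 and 4275. Its summits lay within 262 bases of the gene's higher coordinate, position 15498276 of chromosome 17, on the side facing Tbp, the TATA-binding protein gene. The LSC 2 peak was shared with Tbp. Psmb3 had folds of 96.4 in LSC 1, 27.1 in LSC 2, 37.7 in HSC 1 and 15.3 in HSC 2, at ranks 900, 4931, 6627 and 9238. Its best peak in LSC 2 lay over the start and was shared with Pcgf2, and that in LSC 1 lay 7694 bases inside. The best peaks of HSC 1 and HSC 2 overlapped each other and were shared with Pip4k2b. The HSC 2 summit was 9877 bases from the start, near the far end of this 10067-base gene. In HSC 1 the peak lay beyond that end, with its summit at 12087 bases. Within 1000 bases of the start HSC 1 and HSC 2 also had listed peaks (ranks 9431 and 16185), and LSC 1 a weaker one (rank 24051). Psmb2 had overlapping listed peaks in LSC 2 (rank 2985) and HSC 2 (rank 3208). Psmb5, which carries the chymotrypsin-like active site, had its strongest peak in HSC 1 (rank 212, fold 89.4), a listed peak in LSC 2 (rank 5161, fold 26.7), a weaker one in HSC 2 (rank 57375, fold 9.36) and none in LSC 1. All 3 peaks had summits upstream of the start, at -286 in LSC 2, -159 in HSC 1 and -189 in HSC 2. The ranks of HSC 1 and HSC 2 thus stood on either side of that of LSC 2. Psmb6, the caspase-like subunit, and Psmb4, a structural subunit, were listed in no library, and Psmb4 had no deposited peak in LSC 2 or HSC 2. Psmb7, the trypsin-like subunit, was listed in LSC 1 (rank 8032) and HSC 1 (rank 12757) at sites that did not overlap. Psmb11 was listed in HSC 2 alone and is 1 of 1156 peaks tied at the limit of that list.

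Immunoproteasome genes were listed in 1 of 3 cases in LSC 1, 2 in LSC 2, 1 in HSC 1 and 3 in HSC 2. Over all protein-coding genes the shares were 32.3%, 41.2%, 30.2% and 41.2%. Of all 51 genes, Psmb8 had the best rank in its weakest library. At Psmb8 (chromosome 17, 34198195 to 34201454), whose product replaces Psmb5, folds were 88.4 in LSC 1, 73.3 in LSC 2, 79.8 in HSC 1 and 90.2 in HSC 2, and ranks were 1337, 333, 296 and 88. These overlapping peaks did not lie at the start. They began 261 bases beyond the gene's annotated end in LSC 1, 223 in LSC 2, 292 in HSC 1 and 475 in HSC 2, and ended at least 1072 bases before Tap2, the next gene, which encodes a peptide transporter. In HSC 1 the summit was 1579 bases beyond the end, outside the 1000-base flank. At the Psmb8 start there were listed peaks in LSC 2 (rank 11160, fold 21.4) and HSC 2 (rank 1215, fold 29.9), a weaker one in HSC 1 (rank 26125) and none in LSC 1. Psmb9, whose product replaces Psmb6, had a start peak in LSC 2 (rank 913, fold 51.2) and HSC 2 (rank 3900, fold 19.7), a weak one in HSC 1 (rank 75209, fold 13.7) and none in LSC 1. The listed peaks spanned the interval between Psmb9 and the divergent Tap1, so they cannot be given to either gene. Psmb10, whose product replaces Psmb7, was listed in HSC 2 alone (rank 4514, fold 18.9), with the summit 1362 bases downstream of its start; LSC 2 had a peak of rank 99213, HSC 1 one of rank 123805 and LSC 1 none.

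**Figure D5:**
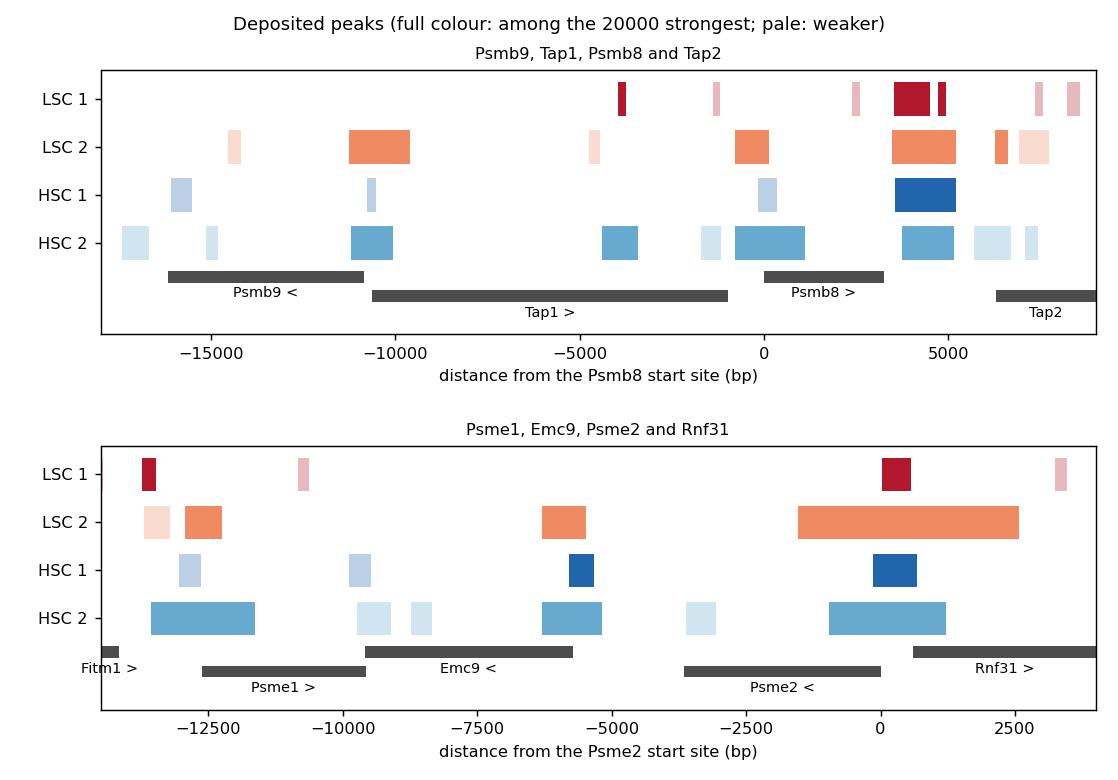
Deposited peaks of each library around Psmb9, Tap1, Psmb8 and Tap2 (upper panel) and around Psme1, Emc9, Psme2 and Rnf31 (lower panel), by distance from the Psmb8 or Psme2 start site; full colour marks listed peaks, pale colour weaker ones, grey bars genes, and arrowheads the direction where known. A listed peak between Psmb8 and Tap2 and one at the Psme2 start are present in all 4 libraries.

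The activators were listed in 3 of 5 cases in LSC 1, 3 in LSC 2, 1 in HSC 1 and 3 in HSC 2. Over all protein-coding genes these shares were 32.3%, 41.2%, 30.2% and 41.2%. Psme2 (chromosome 14, 55587440 to 55591101) had overlapping start peaks in all 4 libraries, with folds of 53.6 in LSC 1, 105 in LSC 2, 56.9 in HSC 1 and 77.9 in HSC 2 and ranks of 6122, 131, 1179 and 120. The LSC 2 peak was 4112 bases wide, against 532 in LSC 1, 832 in HSC 1 and 2180 in HSC 2. Summits lay at -79 in LSC 1, -402 in LSC 2, -131 in HSC 1 and -267 in HSC 2 from the start, over the 250 bases printed or before them. The best peak was shared with the neighbour Rnf31, a subunit of the linear ubiquitin ligase complex, in all 4 libraries. In LSC 2, HSC 1 and HSC 2 it reached into Rnf31 itself. The peak therefore cannot be given to Psme2 alone. Psme1, the PA28 partner of Psme2, had ranks of 3039 in LSC 1, 2356 in LSC 2 and 3650 in HSC 2 near the start, and a weak peak of rank 83483 in HSC 1. The peaks of LSC 1 and HSC 2 were shared with Fitm1. The LSC 1 peak of Psme1 had its summit at -919 and did not overlap that of LSC 2. Psme3, the nuclear activator PA28γ, was listed in LSC 2 alone (rank 5637, fold 25.8, at the start), had weak peaks in LSC 1 (rank 89492) and HSC 2 (rank 146341) and none in HSC 1. Psme4, or PA200, was listed in LSC 1 (rank 9765) and HSC 2 (rank 15307) at sites 44266 and 48418 bases inside the gene that did not overlap. Psme2b, a close copy of Psme2, had 1 peak, in HSC 1 at rank 129228, and reads from such copies may be shared in alignment. The inhibitor Psmf1 was listed nowhere, with ranks between 45793 and 80453.

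In the regulatory particle, 4 of 17 subunit genes were listed in LSC 1, 10 in LSC 2, 4 in HSC 1 and 10 in HSC 2. That is below the share of all protein-coding genes in LSC 1 (32.3%) and HSC 1 (30.2%). It is close to the share of genes of like length there (24.2% and 22.8%). In LSC 2 and HSC 2 it is above that of all protein-coding genes (41.2% in each) and of genes of like length (40.3% and 40.7%). These counts rest on few genes and were not tested. The ATPase gene Psmc5 was the one listed in all 4, with folds of 42.1 in LSC 1, 30.1 in LSC 2, 29.0 in HSC 1 and 25.8 in HSC 2, at ranks 9405, 3638, 12470 and 1827. In LSC 2, HSC 1 and HSC 2 its peaks overlapped at the start, which faces Ftsj3, a rRNA methyltransferase gene, while in LSC 1 the summit was 945 bases downstream and a peak of rank 176519 lay over the promoter. The best Psmc5 peaks of all 4 libraries were shared with Ftsj3. Psmc3 had overlapping listed peaks in LSC 2, HSC 1 and HSC 2 (ranks 6849, 7429 and 7852), and a weaker peak in LSC 1 (rank 47908). Psmc6 was listed in LSC 2 and HSC 2 (ranks 6116 and 1953) at the start. Psmc1, Psmc2 and Psmc4 were listed in no library.

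Psmd1, the large scaffold subunit, had the highest start peaks of the regulatory particle: rank 380 and fold 69.9 in LSC 2, and rank 343 and fold 50.2 in HSC 2, each with its summit 1 base before the annotated start. At the start LSC 1 had a peak of rank 60912 and HSC 1 had none, and the best peaks of these libraries (rank 19187 in LSC 1 and 27825 in HSC 1) lay inside the gene. Psmd12 likewise had overlapping start peaks in LSC 2 (rank 4116) and HSC 2 (rank 675), both with a summit 99 bases downstream. Psmd2, Psmd3, Psmd4 and Psmd8 also had listed peaks in LSC 2 and HSC 2 that overlapped. The best peaks of Psmd8 in LSC 2 and HSC 2 were shared with Catsperg1. Psmd14, the deubiquitinase of the lid, had overlapping peaks in LSC 1 (rank 10262, fold 40.1) and LSC 2 (rank 19219, fold 18.4), and weaker peaks in HSC 1 (rank 33510, fold 18.9) and HSC 2 (rank 23620, fold 12.2). Psmd13 was listed in HSC 2 alone, by a peak shared with Sirt3, and Psmd11 in HSC 1 alone. Psmd6 and Psmd7 were listed nowhere.

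Assembly chaperones of the core were listed in 1 of 4 cases in LSC 1, 3 in LSC 2, 2 in HSC 1 and 2 in HSC 2, and those of the regulatory particle in 0, 1, 1 and 2 of 3. Of all protein-coding genes 32.3%, 41.2%, 30.2% and 41.2% were listed. Psmd5 had start peaks in LSC 2 (rank 3580, fold 30.3) and HSC 2 (rank 3267, fold 20.8), and Psmg1 in LSC 2 (rank 1915, fold 38.8) and HSC 2 (rank 1280, fold 29.4). In LSC 1 and HSC 1 both genes had only peaks beyond rank 40000. The Psmg1 peak of HSC 2 was shared with Brwd1. Psmg4 was listed in LSC 2, HSC 1 and HSC 2, in HSC 1 by a peak shared with Slc22a23. Psmg2 was listed in HSC 1 alone (rank 4095, fold 43.5). Psmd10 was listed in no library.

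Which genes differed between LSC and HSC is the question the design poses. Listed in both LSC libraries and in neither HSC library were Psmd14 and Psmg3, a core assembly chaperone: 2 of 51 (3.92%), beside 2.35% of all genes. Psmd14 was the last of the 51 genes inside the limit in LSC 2 (rank 19219). Its peaks in HSC 1 (rank 33510) and HSC 2 (rank 23620) lay past the limit. Psmg3 had ranks of 12735 in LSC 1 and 3439 in LSC 2, none in HSC 1 and 22467 in HSC 2, just past the limit. Both LSC peaks lay within 1000 bases of the start. The HSC 2 peak lay beyond the other end of the gene, with its summit 4426 bases from the start. At the start HSC 2 had only a peak of rank 107780. Listed in both HSC libraries and in neither LSC library were Psmd9, a regulatory assembly chaperone, and Psmc3ip, again 2 of 51 (3.92%), beside 2.09%. Psmd9 had ranks of 141849 in LSC 1, 178678 in LSC 2, 9734 in HSC 1 and 3815 in HSC 2. Its listed HSC peaks did not overlap each other. Psmc3ip had a rank of 128996 in LSC 1, no peak in LSC 2, and ranks of 3213 in HSC 1 and 13774 in HSC 2. These best peaks did not overlap, but HSC 1 also had a listed peak at the Psmc3ip start, of rank 12263, as HSC 2 had. None of these 4 genes lacked peaks of any strength in the other cell type, and over body and flanks both shares are near the background. Left-out libraries changed these counts and the background with them: there were 6 LSC-only genes without HSC 2 (7.92% of all genes), and HSC-only genes numbered 6 without LSC 2 (6.69%), 5 without HSC 1 (7.99%) and 4 without HSC 2 (6.28%). With the start window, which was chosen after seeing the data, Psma6, Psmd14 and Psmg3 had listed peaks in both LSC libraries and in neither HSC library, 3 of 43 (6.98%) beside 0.835% of all genes. Psma6 has more than 1 annotated start, and its LSC 1 summit lay 14589 bases downstream of the outermost. A start site common to its LSC 1 and LSC 2 peaks is not shown here. In the other direction, Psma2 and Psmc3ip had listed start peaks in both HSC libraries and in neither LSC library, 2 of 43 (4.65%) beside 0.789%. These shares rest on 3 genes and 2 genes and were not tested. The listed HSC peaks of Psma2 and Psmc3ip were all shared with other genes, so they cannot be given to these genes alone. Psma2 shared its peak with Mrpl32. The best peak of Psmc3ip, matched by symbol alone, was shared with Mlx in HSC 1 and Retreg3 in HSC 2.

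Other genes of the ubiquitin and proteasome pathway, from a list of 22 of which 21 were in the gene table, were listed in 12 cases in LSC 1, 14 in LSC 2, 8 in HSC 1 and 17 in HSC 2, where the shares of all protein-coding genes were 32.3%, 41.2%, 30.2% and 41.2%. Listed in all 4 were 6 of the 21, beside 11.3% of all genes: Nfe2l2, the antioxidant relative of Nfe2l1, Nploc4 and Vcp of the unfolding complex, the shuttle factor Ubqln4, the deubiquitinase Usp14 and Zfand5, a proteasome-binding zinc finger protein. Nfe2l2 had the best rank in its weakest library, with folds of 107 in LSC 1, 75.2 in LSC 2, 63.1 in HSC 1 and 65.5 in HSC 2. Nfe2l1 itself, which induces the subunit genes, had ranks of 3138 in LSC 1, 420 in LSC 2, 21724 in HSC 1, just past the limit, and 577 in HSC 2. The core maturation factor Pomp was listed in LSC 2 (rank 7549) and HSC 2 (rank 4949), and Adrm1, a ubiquitin receptor of the regulatory particle, in LSC 2 alone (rank 2049). Neither LSC-only nor HSC-only listing occurred in the 21.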

How the data were processed

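Ruvbl2 CUT&Tag was run on 2 LSC and 2 HSC libraries, grouped by title. The submitters' processing notes name FastQC 0.11.5, Bowtie2 2.2.9, MACS2, ChIPseeker and mm10; the threshold of MACS2 and the handling of duplicates are not stated there. The authors deposited 1 peak list per library with, for each peak, its fold (a ratio over the background of the same library), its −log10 p-value, its −log10 q-value and a score of 10 times the −log10 q-value; the smallest deposited −log10 q was 5.07.

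From these, the peaks of chromosomes 1 to 19, X and Y were ranked by −log10 p (Python 3.11.15, pandas 2.3.3) and the 20000 strongest kept, tied ranks in file order; 269 to 1156 peaks per library were tied at the limit. Windows came from RefSeq gene coordinates of GRCm38.p6, which are those of mm10, with an overlap of at least 1 base. Start sites came from the RefSeq promoter table (43 of 51 genes; Psma8, Psmb1, Psmb2, Psmb7, Psmc3, Psmd3, Psmd7 and Psmg2 had no entry). The overlap code was checked on simulated data. No test was run; 8 planned and 2 added alternatives were tried. Genes, lists and windows were chosen with earlier results of these data known. Values in every library are given for genes listed in all 4 libraries or in 1 cell type, the immunoproteasome genes, the activators and the best ranked of each class; others were named after their values were seen.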

Additional observations from a re-analysis of the deposited data

How the results depend on the processing

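No paired analysis was possible because no test was fitted that a block could enter; counts within each replicate number (18 LSC against 19 HSC genes, and 29 against 31) describe the pairs. Shares of all genes under the same setting follow each count in parentheses. Ranking by fold gave the same lists, and a summit inside the window kept each count within 1.5 times. With the full deposited lists the genes in all 4 libraries numbered 36 (61.2%), the LSC-only genes 0 (1.41%), the HSC-only genes 0 (1.3%), and the genes with a peak 45 (79.4%) in LSC 1, 48 (82.3%) in LSC 2, 44 (73.0%) in HSC 1 and 47 (85.0%) in HSC 2. The 10000 strongest peaks gave 0 LSC-only genes (1.77%), 10 genes in LSC 1 (21.0%) and 12 in HSC 1 (19.2%). The 40000 strongest gave 12 genes in all 4 (22.0%) and 0 LSC-only genes (2.54%). Windows of 1000 bases around both gene ends gave 4 genes in all 4 (2.91%), 9 in LSC 1 (11.0%) and 11 in HSC 1 (10.6%), and 27 in LSC 2 (25.5%) and 29 in HSC 2 (25.1%). Flanks of 3000 bases gave 1 LSC-only (2.53%) and 1 HSC-only gene (2.13%). Leaving out peaks shared with other genes gave 3 genes in all 4 (8.65%) and 1 HSC-only gene (1.79%). Chosen after seeing the data, leaving out Psmc3ip and Psme3ip1 gave 1 HSC-only gene (2.09%), and start windows gave 2 genes in all 4 (2.84%), 7 in LSC 1 (9.54%), 7 in HSC 1 (9.03%), 3 LSC-only (0.835%) and 2 HSC-only genes (0.789%). Leaving out 1 library at a time gave 8 to 11 genes in all the libraries left (13.3% to 16.9%), 3 to 6 LSC-only (4.33% to 8.42%) and 3 to 6 HSC-only genes (4.2% to 7.99%). The causes of these moves were not tested, apart from the longer or shorter lists and the fewer libraries themselves.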

Other observations

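Start peaks at the proteasome genes can be set beside those of other gene groups with the same criterion. Cytosolic ribosomal protein genes with an annotated start had a listed start peak in 14 of 56 cases (25.0%) in LSC 1, 31 (55.4%) in LSC 2, 11 (19.6%) in HSC 1 and 37 (66.1%) in HSC 2. Genes of respiratory complex I (Nduf) had one in 7 of 34 (20.6%), 21 (61.8%), 7 (20.6%) and 17 (50.0%). The shares of the proteasome genes, 16.3%, 55.8%, 16.3% and 55.8%, lie between these in LSC 2 and HSC 2 and below both in LSC 1 and HSC 1. The differences between the groups were not tested.

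The last proteasome gene inside the limit of 20000 peaks and the first outside it were Psma2 (rank 19511) and Psmd11 (rank 20903) in LSC 1, Psmd14 (rank 19219) and Psme4 (rank 21772) in LSC 2, Psma3 (rank 16706) and Psmb2 (rank 25400) in HSC 1, and Psmb11 (rank 19404) and Psmg3 (rank 22467) in HSC 2.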
